A study of Homo sapiens with 6 samples.

Results

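The baseline transcriptome of control SK-NEP-1 cells was described from the 3 libraries treated with a control small interfering RNA (siNC), out of 6 libraries in the series. SK-NEP-1 is an established human cell line, labelled as derived from kidney and Wilms tumor, and the other libraries received a small interfering RNA against EHMT2 and were not used. No untreated cells were among the samples, so every level given is that of cells exposed to siNC, and the sources used here give neither dose nor time of siNC. The titles name SK-NEP-1 for every library although the cell line field adds a running number to the name, and the titles were followed. Nothing in the labels says whether the 3 libraries came from separate cultures, so the spread between them may be technical. All 55765 gene names of the table were taken, of which 19142 matched a nuclear or mitochondrial protein-coding gene. A level is given as FPKM, fragments divided by transcript length and by the sequenced total, which is relative to each library and can be compared between genes because it is divided by length. A gene whose mean of the 3 libraries reached 1 FPKM was called expressed, and below 0.1 FPKM absent. Absent names this level class and not a lack of reads: of 5740 absent protein-coding genes, 3079 were at 0 in every library. Values after ± are SDs over the 3 libraries (n = 3), and since all belong to 1 group, the levels are a description and no test was made.

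A cell line in culture expresses a core of genes for energy metabolism, translation and the cytoskeleton that nearly every dividing cell uses, and beside it a smaller set of transcription factors, receptors and surface proteins that tell cell types apart. Wilms tumor is a childhood kidney tumor that resembles the embryonic kidney, where nephron progenitors express SIX2, CITED1, WT1 and PAX2. Published work on SK-NEP-1 describes a fusion of the genes EWSR1 and FLI1, whose product binds the ETS core GGAA and activates genes such as NKX2-2 and CCND1. Values summed per gene cannot show a fusion transcript, so its presence was not tested here.

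The 6 genes taken as markers of the line were expressed in every library. CCND1, the cyclin that drives cells from G1 into S phase, was at 365, 369 and 388 FPKM, and ranked 25th among nuclear protein-coding genes. NKX2-2, a homeobox factor of the ventral neural tube, was at 130.2, 119.9 and 127 FPKM. The libraries lay close together for both genes. PRAME, a cancer-testis antigen, was at 71.5, 66.5 and 64.4 FPKM. IGF2BP1, an RNA-binding protein of fetal tissue, was at 41.8, 43.6 and 33.4 FPKM, with replicate 3 lowest. STEAP1, a metalloreductase of the cell surface, was at 28.4, 30.7 and 27.7 FPKM. PRKCB, protein kinase C beta, had the lowest mean of the 6 and the values 22.6, 25.3 and 18.6 FPKM, again with replicate 3 lowest.

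The promoters of the markers show what sequence stands upstream of genes at these levels. RefSeq promoter entries matched 4 of the 6 markers by symbol, and the 250 bases before each start are printed 5′ to 3′ on the gene's own strand in GRCh38.p14, with each ETS core GGAA, read on either strand (GGAA or TTCC), in capitals. The NKX2-2 window lies at chr20:21522690-21522939 on the minus strand, STEAP1 at chr7:90154219-90154468 on the plus strand, PRKCB at chr16:23835733-23835982 on the plus strand and PRAME at chr22:22559266-22559515 on the minus strand.
NKX2-2: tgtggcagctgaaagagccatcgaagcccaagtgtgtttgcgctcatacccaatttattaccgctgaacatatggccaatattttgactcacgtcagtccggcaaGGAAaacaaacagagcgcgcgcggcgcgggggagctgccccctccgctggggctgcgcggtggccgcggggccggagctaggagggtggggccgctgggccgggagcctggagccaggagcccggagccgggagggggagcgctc
STEAP1: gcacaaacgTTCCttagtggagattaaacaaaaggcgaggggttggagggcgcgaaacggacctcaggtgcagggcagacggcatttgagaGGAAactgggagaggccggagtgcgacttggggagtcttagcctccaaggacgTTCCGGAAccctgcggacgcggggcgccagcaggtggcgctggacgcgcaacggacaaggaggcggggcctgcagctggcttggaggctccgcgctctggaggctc
PRKCB: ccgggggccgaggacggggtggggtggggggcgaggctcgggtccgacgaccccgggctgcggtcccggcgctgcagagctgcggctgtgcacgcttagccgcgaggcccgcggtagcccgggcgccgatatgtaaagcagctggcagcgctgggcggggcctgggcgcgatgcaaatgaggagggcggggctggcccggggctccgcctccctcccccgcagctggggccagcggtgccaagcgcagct
PRAME: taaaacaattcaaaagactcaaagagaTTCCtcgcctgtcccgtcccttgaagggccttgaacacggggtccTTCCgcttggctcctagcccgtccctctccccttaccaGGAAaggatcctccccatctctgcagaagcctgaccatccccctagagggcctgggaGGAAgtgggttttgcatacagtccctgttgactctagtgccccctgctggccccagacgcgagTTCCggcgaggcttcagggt
The core occurs 1 time upstream of NKX2-2, 4 times upstream of STEAP1, 5 times upstream of PRAME and 0 times upstream of PRKCB. A GGAA on either strand is present in 92.5% of the 15187 protein-coding promoters matched, so holding it sets no gene apart. None of the 4 windows holds a gapless run of 3 GGAA cores, which occurs on either strand in 0.0527% of the promoters (8 of 15187). A match is a description of letters and not evidence of binding, and the EWSR1-FLI1 sites reported for such genes can lie far from the start.

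Of all gene names, 12813 (23%) were expressed and 35341 (63.4%) were absent. Among protein-coding genes, 10874 (56.8%) were expressed and 5740 (30%) were absent, and 10562 were at 1 FPKM or more in every library. Levels were unevenly spread: 4199 nuclear protein-coding genes lay from 10 to below 100 FPKM, 218 from 100 to below 1000, and only GAPDH and EEF1A1 above 1000. Set beside the 56.8% of all protein-coding genes, 54.7% of 654 listed transcription factors were expressed, against 48.9% of 182 surface proteins, 37.6% of 340 receptors, 30% of 50 cancer-testis antigens and 23.7% of 321 ligands. The members of these lists thus ran from a share near the background for transcription factors to a lower one for ligands, of which 165 were absent. Counts of single lists given below are to be read beside the same background, 56.8% expressed and 30% absent.

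**Figure D1:**
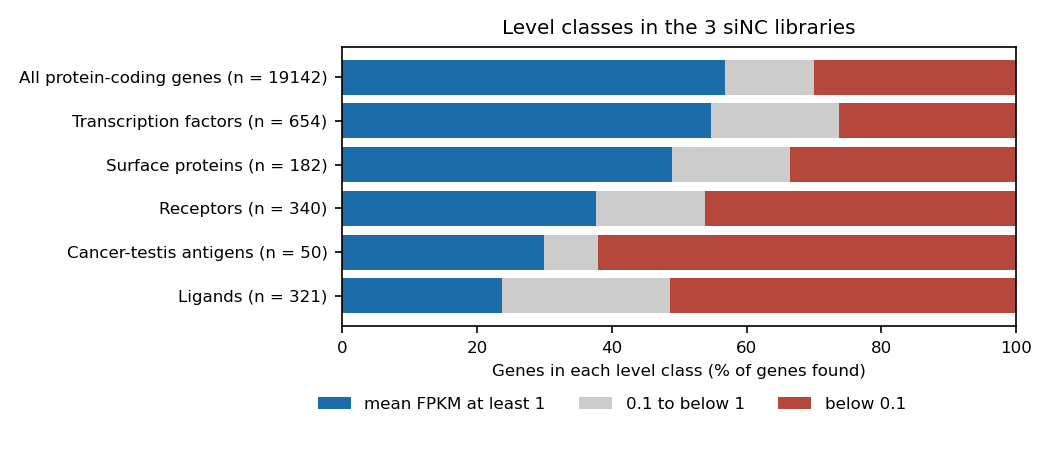
Share of genes in each level class, in percent of the genes found, for all protein-coding genes and for the listed classes. Each gene was classed once, by its mean FPKM over the 3 siNC libraries. The expressed share (blue) falls from 56.8% of all protein-coding genes to 23.7% of ligands, and the absent share (red) is 51.4% of ligands.

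Mitochondrially encoded transcripts took 20.6%, 21.5% and 20.2% of the FPKM sum in replicates 1, 2 and 3, with MT-CO1, a subunit of cytochrome c oxidase, highest at 7582, 7709 and 7385 FPKM. Among nuclear protein-coding genes, the glycolytic enzyme gene GAPDH was at 1220.3, 1126 and 1239.7 FPKM, and EEF1A1, which delivers aminoacyl-tRNA to the ribosome, at 1139, 1069 and 1266 FPKM. These were the most abundant nuclear transcripts, and the next were well below them. YBX1, a nucleic acid-binding protein, was at 795 ± 71.2, the actins ACTB and ACTG1 at 792 ± 78.6 and 785 ± 96.9, and the ribosomal protein genes RPL41 and RPS12 at 783 ± 137 and 741 ± 93.3 FPKM. The tubulin gene TUBA1B was at 710.3 ± 78.1, the ferritin chains FTL and FTH1 at 710.1 ± 162 and 681 ± 126, the chaperone HSP90AB1 at 640.3 ± 51.8 and the actin-monomer binder TMSB10 at 638 ± 139 FPKM. RPS2, RPL8 and RPLP0, further ribosomal proteins, completed the first 15 at 572 ± 80.8, 569 ± 73.7 and 553 ± 51.99 FPKM. Ribosomal protein and ferritin genes have many processed pseudogenes, and rows such as the pseudogene RPS2P5 (431 ± 51.9 FPKM) show that reads were also given to similar copies, so these levels are uncertain.

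The 77 cytosolic ribosomal protein genes took 6.66 ± 0.646% of the sum, and the 50 most abundant nuclear protein-coding genes 9.28 ± 0.597%. The transcript pool was broad all the same, since 1111 rows were needed to hold 50% of the nuclear sum. The listed transcription factors together took 2.26 ± 0.0828%, the receptors 0.506 ± 0.0362% and the ligands 0.491 ± 0.0299%. Cell cycle genes were expressed in 34 of 36 cases. Among them the polymerase clamp gene PCNA was at 219, 206 and 331 FPKM, the helicase subunit MCM7 at 159 ± 17.3 FPKM and the topoisomerase TOP2A at 159 ± 12.3 FPKM. The proliferation antigen MKI67 was at 35.1, 42.6 and 24.2 FPKM. The exceptions were CDKN2A and CDKN2B, inhibitors of CDK4 and CDK6, which were listed at 0 in every library, while CDK4 itself was at 74.7 ± 9.49 FPKM and RB1 at 19.3 ± 1.08 FPKM.

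Among transcription factors, 358 of 654 were expressed, 343 of them at 1 FPKM or more in every library, and 172 were absent. After the general nucleic acid-binding proteins YBX1 and HMGA1 (226 ± 12.1 FPKM), the highest were the stress-response factor ATF4 (131 ± 11.5 FPKM), NKX2-2 (126 ± 5.26 FPKM), the bHLH inhibitor ID2 (114 ± 21.2 FPKM), CEBPB (107 ± 6.05 FPKM) and the cell cycle factor MYBL2 (103 ± 6.41 FPKM). PAX7, a paired-box factor of neural crest and muscle stem cells, was at 95.2, 98.02 and 93.8 FPKM. PAX7 was even across the libraries. MYC, a driver of growth, was at 93.01, 85.5 and 93.9 FPKM. Its relative MYCN was at 8.58 ± 0.937 and MYCL at 1.296 ± 0.254 FPKM. The mitotic factor FOXM1 was at 55.8 ± 0.152, with nearly the same value in the 3 libraries.

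**Figure D2:**
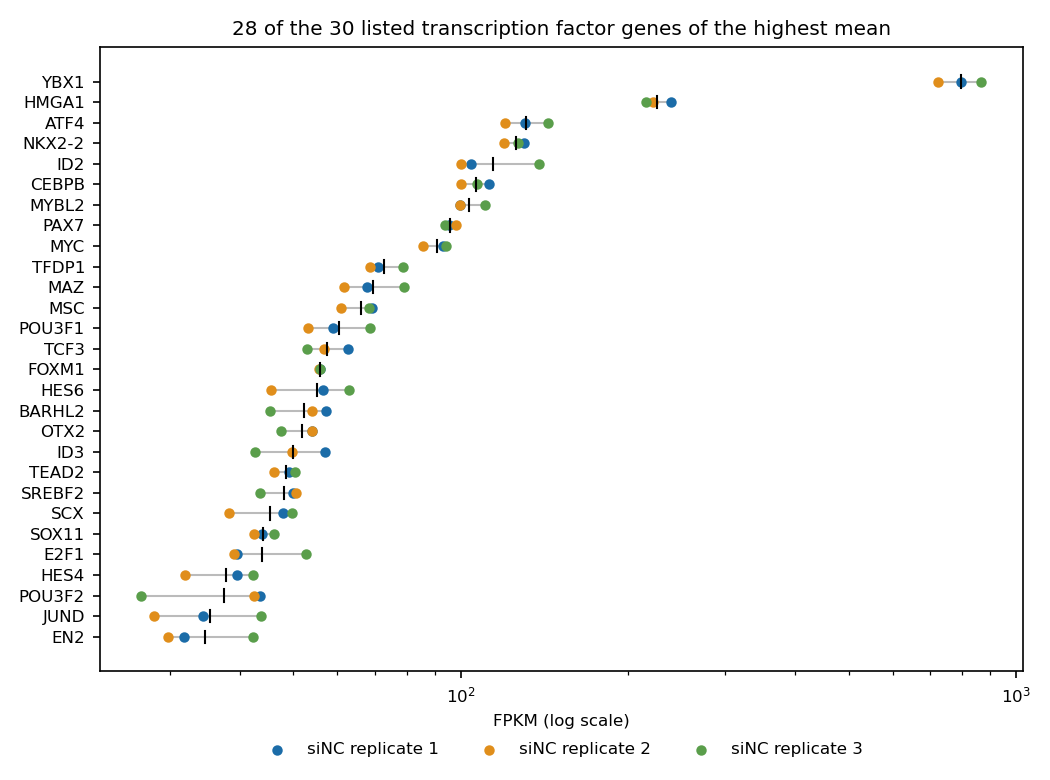
FPKM (log scale) of 28 of the 30 listed transcription factor genes of the highest mean, with a coloured point for each siNC library and a black bar at the mean. YBX1 stands above all others with a mean of 795, NKX2-2 and PAX7 have narrow ranges, and POU3F2 is lower in replicate 3 than in the other libraries.

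Of the homeobox lists, only the HOX list, with 25 of 39 genes expressed (64.1%), was above the 56.8% of all protein-coding genes. Expressed in the others were 45 of 80 genes of the general homeobox list, 8 of 25 NK and LIM homeobox genes and 6 of 14 POU genes. BARHL2, which acts in spinal cord and retina, was at 57.1, 54.1 and 45.3 FPKM. OTX2, a factor of forebrain and midbrain, was at 53.98, 54.1 and 47.4 FPKM. EN2, a factor of the midbrain-hindbrain boundary, was at 31.8, 29.7 and 42.2 FPKM. For BARHL2 and OTX2 replicate 3 was lowest, and for EN2 it was highest. The POU factors POU3F1 and POU3F2, which act in Schwann cells and neurons, were at 60.3 ± 7.78 and 37.5 ± 9.47 FPKM, and the neural progenitor factors SOX11, SOX2 and SOX1 at 44.1 ± 1.85, 19.4 ± 3.897 and 12.4 ± 0.677 FPKM. Further members of the SOX list were SOX12 (27.3 ± 1.15 FPKM), SOX4 (26.2 ± 2.897 FPKM) and SOX18 (19.4 ± 5.37 FPKM), the last a factor of endothelium. The neural tube factors NKX6-1 and ISL2 were at 10.8 ± 2.07 and 5.48 ± 0.676 FPKM, and NKX2-5, known from the heart, at 10.9 ± 2.58 FPKM. POU4F1, a sensory neuron factor, was at 6.795 ± 1.96 FPKM, ZIC2 at 28.03 ± 3.09 FPKM and TFAP2B, a factor of neural crest and distal nephron, at 27.7 ± 2.74 FPKM.

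HOX genes, which set position along the body axis, divided by cluster. None of 11 HOXA genes was expressed, and the highest of them, HOXA9, was at 0.262, 0.142 and 0.259 FPKM. Of the HOXB genes 9 of 10 were expressed, of the HOXC genes 9 of 9 and of the HOXD genes 7 of 9. The posterior HOXD genes were highest: HOXD10 was at 31.2 ± 3.13, HOXD13 at 27.2 ± 1.27, HOXD11 at 25.4 ± 8.34 and HOXD9 at 23.1 ± 3.78 FPKM. HOXC11 led its cluster at 21.2 ± 1.097 FPKM and HOXB7 its own at 17.7 ± 2.398 FPKM.

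Of 27 ETS factors, 13 were expressed and 10 absent. ELK3, a repressor regulated by RAS signalling, was highest at 24.2 ± 0.777 FPKM, followed by ERF (21.003 ± 1.53 FPKM), GABPA (17.4 ± 0.0196 FPKM) and ELF4 (16.3 ± 0.983 FPKM). FLI1, the ETS factor that is fused to EWSR1 in the published fusion, was at 6.17, 5.998 and 6.41 FPKM. Its paralog ERG was listed at 0 in replicates 1 and 2 and at 0.00680 FPKM in replicate 3. FLI1 was thus present at about the same level in each library while ERG was in the absent class. FEV was at 4.86, 3.96 and 6.46 FPKM, ETV1 at 0.567 ± 0.161 FPKM and ETV4 at 0.0193 ± 0.0171 FPKM. NR0B1, an orphan nuclear receptor that EWSR1-FLI1 is known to activate, was at 11.7, 9.86 and 9.21 FPKM.

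In other transcription factor lists, GATA2 led its family at 18.4 ± 2.16 FPKM and TBX1 the T-box genes at 20.02 ± 1.47 FPKM. The nuclear receptor of the highest mean was the metabolic regulator ESRRA at 24.9 ± 2.13 FPKM. Signalling effectors were expressed in 40 of 50 cases, led by TEAD2 (48.5 ± 2.17 FPKM) of the Hippo pathway and the heat shock factor HSF1 (32.3 ± 0.675 FPKM). The smallest expressed shares were in the NK and LIM homeobox list (8 of 25), the GATA list (2 of 6) and the T-box list (6 of 17). The call of a gene near a threshold depends on small differences: WT1 (1.04 ± 0.249 FPKM) and ONECUT2 (1.05 ± 0.453 FPKM) lay just inside the expressed class and ATF3 (0.943 ± 0.118 FPKM) just outside. At the lower threshold NEUROG2 (0.0969 ± 0.0644 FPKM) and MYOD1 (0.0926 ± 0.0145 FPKM) were just inside the absent class, and NR2E3 (0.102 ± 0.0749 FPKM) and NFATC2 (0.102 ± 0.0497 FPKM) just outside.

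Receptor tyrosine kinases were expressed in 27 of 58 cases and absent in 17. EPHA2, an ephrin-A receptor, was at 40.3, 37.5 and 43.5 FPKM, and the ephrin-B receptor EPHB4 at 38.5, 36.3 and 35.7 FPKM. KIT, the stem cell factor receptor, was at 27.6, 29.8 and 37.02 FPKM. EPHB4 and EPHA2 were even between libraries, and KIT was highest in replicate 3. The planar polarity receptor PTK7 was at 16.99 ± 2.8004, FGFR4 at 12.1 ± 0.823, FGFR1 at 10.7 ± 0.6497 and IGF1R at 9.17 ± 1.95 FPKM. ERBB2 was at 7.42 ± 0.764 FPKM, whereas EGFR (0.0357 ± 0.0391 FPKM) and PDGFRA (0.0391 ± 0.00223 FPKM) were absent and the hepatocyte growth factor receptor MET was in between at 0.602 ± 0.268 FPKM.

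Receptors of the WNT, Hedgehog and NOTCH pathways were expressed in 19 of 22 cases. The WNT receptor FZD8 was at 70.2, 65.3 and 58.2 FPKM. The WNT receptors FZD2 and FZD1 were at 31.7 ± 0.802 and 20.9 ± 2.89 FPKM, the co-receptor LRP5 at 29.8 ± 4.57 FPKM and the Hedgehog transducer SMO at 31.4 ± 0.899 FPKM. NOTCH1 and NOTCH3 were at 19.8 ± 4.63 and 16.6 ± 5.63 FPKM, both lowest in replicate 3. Of 28 receptors of the tumor necrosis factor family, 12 were expressed. NGFR, the low-affinity neurotrophin receptor of neural crest, was at 58.7, 55.6 and 63.9 FPKM, and the death receptor TNFRSF10B at 34.1, 34.3 and 33.1 FPKM. The decoy receptor TNFRSF10D was at 20.3 ± 0.293, TNFRSF1A at 12.5 ± 0.881 and FAS at 9.23 ± 2.81 FPKM. In the TGF-beta and BMP list 9 of 14 receptors were expressed, led by ACVR1B (12.5 ± 0.829 FPKM) and the co-receptor ENG (12.04 ± 0.214 FPKM), but TGFBR2, the receptor that binds TGF-beta, was at 0.321, 0.282 and 0.238 FPKM.

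Axon guidance receptors were expressed in 11 of 21 cases (52.4%), near the 56.8% of all protein-coding genes. They were led by the semaphorin receptor PLXNB2 at 49.9 ± 4.71 FPKM and the netrin receptor UNC5A at 18.98 ± 1.35 FPKM. Of 49 cytokine receptors 18 were expressed and 24 absent. The interferon gamma receptor chains IFNGR2 and IFNGR1 were at 16.7 ± 1.53 and 9.904 ± 1.91 FPKM, the erythropoietin receptor EPOR at 15.7 ± 2.04 FPKM and IL1RAP, the accessory chain of the interleukin-1 receptor, at 12.9 ± 3.93 FPKM. Chemokine receptors were absent in 18 of 22 cases. The 3 expressed were the scavenger ACKR3 (22.6 ± 4.43 FPKM), CXCR4 (4.45 ± 0.727 FPKM) and CCR10 (2.22 ± 0.0905 FPKM). Among 126 other G protein-coupled receptors 29 were expressed and 74 absent. The adrenergic receptors ADRA2C and ADRB1 were highest at 31.02 ± 3.602 and 26.6 ± 5.65 FPKM, followed by the adhesion receptor ADGRL1 (20.6 ± 4.42 FPKM), the prostaglandin receptor PTGER3 (19.5 ± 2.602 FPKM) and the glutamate receptor GRM2 (18.7 ± 0.461 FPKM). NPY1R, a receptor of neuropeptide Y, was at 8.42 ± 1.96 FPKM, and its relative NPY5R was absent.

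Growth factor ligands were expressed in 16 of 69 cases. MDK, the heparin-binding growth factor midkine, was at 116, 96.2 and 86.4 FPKM, and HDGF at 100.2, 90.98 and 99.9 FPKM. VEGFB was at 39.97 ± 1.83 FPKM, above VEGFA at 5.28 ± 0.5395 FPKM, and the secreted protein GRN was at 30.9 ± 1.196 FPKM. IGF2, a fetal growth factor often abundant in Wilms tumor, was at 2.01, 2.18 and 1.68 FPKM, so it was expressed but low. TGFB1 was highest of the TGF-beta and BMP ligands at 38.6, 35.7 and 39.5 FPKM, followed by GDF6 (22.1 ± 0.737 FPKM), GDF11 (12.6 ± 2.37 FPKM), GDF1 (11.9 ± 1.18 FPKM) and AMH (11.5 ± 3.43 FPKM). WNT5A, a ligand of the non-canonical WNT pathway, was at 27.04, 26.9 and 21.6 FPKM, and WNT6 at 10.3 ± 2.78 FPKM. The NOTCH ligand JAG2 was at 18.6 ± 1.56 FPKM, DLL3, which inhibits NOTCH within the cell, at 6.54 ± 0.723 FPKM, and JAG1 below the threshold at 0.563 ± 0.0971 FPKM.

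Axon guidance ligands were expressed in 21 of 37 cases and absent in 4 (10.8%). The expressed share, 56.8%, equalled that of all protein-coding genes, of which 30% were absent. EFNB1, ephrin-B1, was at 80.4, 77.4 and 80.8 FPKM. Next were the semaphorins SEMA5B (19.4 ± 4.39 FPKM) and SEMA4C (18.4 ± 1.05 FPKM) and the ephrins EFNA4 (14.7 ± 1.32 FPKM) and EFNB2 (14.5 ± 0.573 FPKM). Cytokines and chemokines were the ligands least often expressed, at 10 of 96, with 71 absent. MIF, an abundant intracellular cytokine, was at 304, 245 and 281 FPKM. The next, IL17D, was far lower at 5.003 ± 0.777 FPKM, and IL6 was listed at 0 in every library. Of 54 peptide hormones and neuropeptides 14 were expressed. GRP, gastrin-releasing peptide, was at 116, 118 and 68.5 FPKM. UTS2, urotensin 2, was at 14.8, 14.6 and 31.2 FPKM, and the gut and brain peptide CCK at 15.5, 14.98 and 23.3 FPKM. Replicate 3 was apart from the other 2 libraries in these peptides, lower for GRP and higher for UTS2 and CCK.

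Of 171 ligand and receptor pairs, 27 had both members expressed, 31 had an expressed receptor with an absent ligand, and 21 an expressed ligand with an absent receptor. Over the lists, 23.7% of ligands and 37.6% of receptors were expressed, beside 56.8% of all protein-coding genes. Whether the pair counts differ from what the levels of their members would give without pairing was not tested. In the ephrin pair EFNB1 (79.5 FPKM) and EPHB4 (36.8 FPKM) both members were abundant. SEMA4C and its receptor PLXNB2, JAG2 and NOTCH3, and WNT5A and ROR1 (4.796 ± 0.551 FPKM) were also both expressed. GAS6 was at 6.14 ± 0.639 FPKM and its receptor tyrosine kinase TYRO3 at 5.73 ± 0.565 FPKM, and the inhibitory ligand CD47 was at 4.104 ± 0.124 FPKM with its receptor SIRPA at 47.8 ± 1.01 FPKM. Some abundant receptors had a ligand below the threshold in the same cells. TNFSF10 was listed at 0 beside TNFRSF10B, and KITLG was at 0.215, 0.214 and 0.263 FPKM beside KIT. The reverse held for GRP, whose receptor GRPR was absent at 0.01298 ± 0.0225 FPKM, and for TGFB1, whose receptor TGFBR2 lay between the thresholds. These counts describe transcripts of 1 cell line and do not show that any pair signals.

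**Figure D3:**
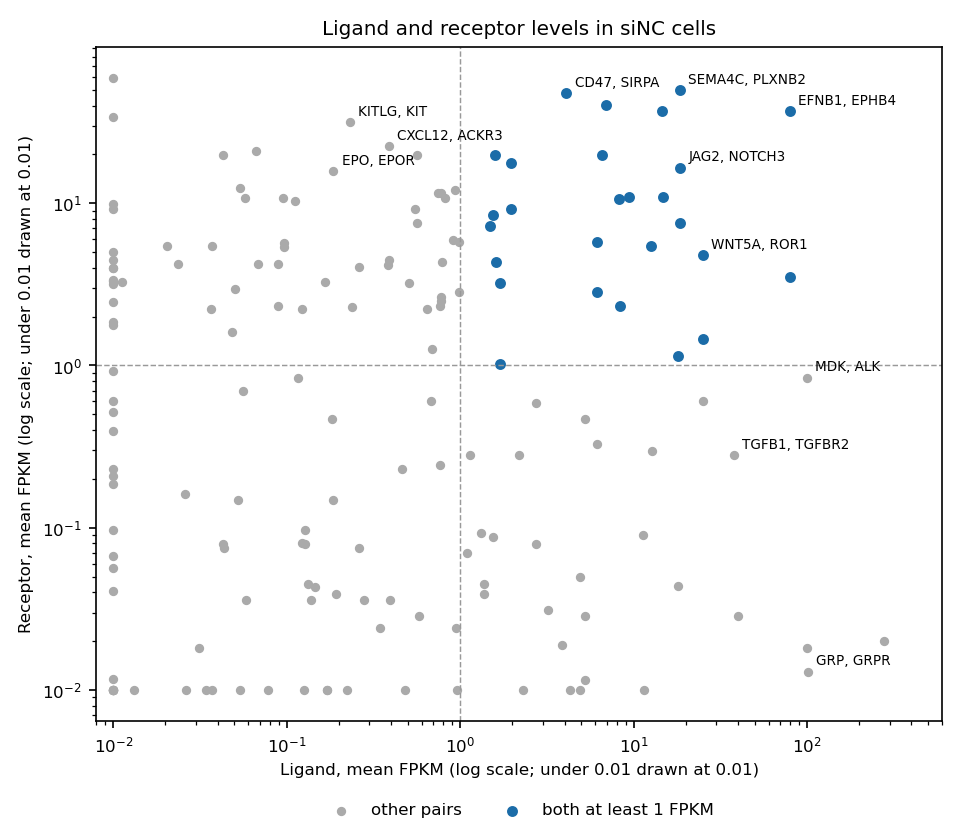
Mean FPKM of the ligand (x axis) and of the receptor (y axis) for 171 textbook pairs, both on log scales, with values under 0.01 drawn at 0.01 and dashed lines at 1 FPKM. The 27 pairs with both members expressed (blue) lie in the upper right, with EFNB1 and EPHB4 at 79.5 and 36.8 FPKM, while KIT lies high on the left, with its ligand below 1 FPKM.

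Among surface proteins, adhesion and stem markers were expressed in 39 of 80 cases. BSG, the immunoglobulin-family protein basigin, was at 135 ± 7.28, the transferrin receptor TFRC at 52.2 ± 5.25, the phosphatase PTPRF at 45.8 ± 7.68 and the tetraspanin CD63 at 38.7 ± 4.76 FPKM. ITGB2, the beta-2 integrin chain known from leukocytes, was at 45.04, 43.3 and 52.6 FPKM. The alpha chains it pairs with in leukocytes were absent: ITGAL at 0.00303 ± 0.00525, ITGAM at 0.0105 ± 0.00910 and ITGAX at 0 FPKM. The leukocyte marker PTPRC was absent too, at 0.0283 ± 0.0332 FPKM. CD44, an adhesion receptor for hyaluronan, was listed at 0 in replicates 1 and 2 and at 0.0684 FPKM in replicate 3, whereas the neural and stromal surface protein THY1 was at 25.4 ± 3.05 FPKM.

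Of 64 targets of immunotherapy, 29 were expressed and 25 absent. CD99, a surface glycoprotein, was at 51.7, 43.4 and 70.9 FPKM, with replicate 3 highest. LINGO1, a neuronal receptor subunit, was at 41.9, 41.3 and 45.3 FPKM. Besides these and EPHA2, KIT and STEAP1, the list held STEAP2 at 16.5 ± 2.72, GPC2 at 13.1 ± 1.68, CD276 at 7.54 ± 1.02, ROR1 at 4.796 ± 0.551 and L1CAM at 3.64 ± 1.19 FPKM. B4GALNT1, an enzyme of GD2 ganglioside synthesis, was at 6.34 ± 0.236 FPKM, but ST8SIA1, which acts before it, was absent at 0.00444 ± 0.00107 FPKM. FOLR1, FAP and the checkpoint ligand CD274 were listed at 0 in every library. In the immune and checkpoint list 22 of 40 genes (55%) were expressed, near the 56.8% of all protein-coding genes. B2M, the light chain of class I antigen-presenting molecules, was at 115, 109 and 131 FPKM. The heavy chain genes HLA-B and HLA-C were much lower, at 1.13, 1.12 and 1.58 FPKM and at 0.222, 0.309 and 0.313 FPKM. These genes are polymorphic and alike, so the authors' alignment could divide or lose their reads, and their levels are uncertain. The nectin-family proteins NECTIN2 and PVR, ligands of natural killer and T cell receptors, were at 19.6 ± 2.15 and 11.9 ± 2.03 FPKM, and the complement regulator CD46 was at 17.6 ± 1.47 FPKM.

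Of 50 cancer-testis and related antigens, 15 were expressed and 31 absent, 21 of them listed at 0 in every library. Next to PRAME, the broadly expressed MAGED1 and MAGED2 were at 48.9 ± 9.63 and 43.6 ± 5.75 FPKM, the mitotic kinesin KIF2C at 46.9 ± 1.72 FPKM and CTCFL, the germ cell paralog of CTCF, at 39.05, 38.5 and 34.4 FPKM. XAGE1B was at 6.04 ± 1.51 FPKM, a value that near-identical copies could divide. MAGEA1, MAGEA4 and SSX1 were listed at 0 in every library, and since these families also have near-identical copies, a 0 is uncertain there as well.

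The submitters' label of a kidney tumor line was set against lineage markers. In bulk RNA, fewer cells of a type and less RNA per cell cannot be told apart. Of 22 nephron progenitor and blastema genes 9 were expressed and 7 absent. The highest were LYPD1 at 36.8, 36.2 and 24.1 FPKM and HOXD11 at 28.1, 32.2 and 16.1 FPKM. CRABP2 was at 7.39 ± 1.38 and SALL1 at 2.14 ± 0.319 FPKM, and CITED1 and EYA1 at 1.77 ± 0.448 and 1.35 ± 0.329 FPKM. WT1, the Wilms tumor gene, was at 0.897, 0.895 and 1.33 FPKM, above 1 FPKM in replicate 3 alone. SIX2 was at 0.153, 0.171 and 0.1201 FPKM, and PAX2 was absent at 0.0419, 0.0743 and 0.104 FPKM. The progenitor markers were therefore split, with SIX2 and PAX2 low and HOXD11 and LYPD1 present. HOXD11 was high together with HOXD10, HOXD13 and HOXD9, and 7 of 9 HOXD genes were expressed, so its level was not particular to progenitor markers.

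Each list of the differentiated nephron held more absent than expressed genes. No proximal tubule gene of 15 was expressed and 9 were absent, among them the endocytic receptors LRP2, listed at 0, and CUBN, at 0.0905 ± 0.0294 FPKM. Of 17 distal nephron and collecting duct genes 5 were expressed and 10 absent. Those expressed were led by TFAP2B and the sodium channel subunit SCNN1G (10.9 ± 1.15 FPKM), whereas UMOD, SLC12A3 and AQP2, which define the thick limb, the distal tubule and the collecting duct, were listed at 0. Of 12 podocyte genes 4 were expressed, among them PODXL (21.96 ± 4.22 FPKM), and the slit diaphragm gene NPHS1 was listed at 0. General epithelial markers were absent in 10 of 17 cases, including CDH1 (0.0305 ± 0.00658 FPKM) and EPCAM (0.0776 ± 0.0286 FPKM), while KRT18 was at 4.21 ± 0.46999 FPKM. Apart from the general epithelial list, these lists describe the differentiated nephron. What their low members mean for the label of a tumor that resembles embryonic kidney was not tested. The cells are called here by the name of the line.

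Genes that EWSR1-FLI1 is known to activate were expressed in 40 of 45 cases and absent in 2, with a list median of 19.4 FPKM against 2.17 FPKM over all protein-coding genes. The list was chosen with earlier results of these data known and holds 4 of the 6 given markers, so the counts are no independent support for a fusion. Besides CCND1 and NKX2-2, its high members included CAV1, caveolin-1, at 234, 231 and 293 FPKM, and FCGRT, the neonatal Fc receptor, at 194, 185 and 234 FPKM. The histone methyltransferase EZH2 was at 93.6 ± 10.1, the transcription factors FEZF1 and BCL11B at 46.5 ± 1.35 and 24.3 ± 0.461, and GLI1 at 5.84 ± 0.836 FPKM. Absent members were NPY5R (0.0875 ± 0.0335 FPKM) and TNFAIP6 (0.0127 ± 0.0219 FPKM). Of 24 genes that EWSR1-FLI1 is known to repress, 13 (54.2%) were expressed and 6 (25%) absent, with a median of 1.32 FPKM. Among all protein-coding genes 56.8% were expressed and 30% absent, so the shares of this list were near the background. The focal adhesion protein ZYX was highest at 16.5 ± 0.976 FPKM, and the extracellular matrix gene COL3A1, DKK1 and THBS1 were absent, with DKK1 listed at 0.

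Neuronal genes were expressed in 16 of 25 cases (64%), with a median of 2.55 FPKM. Over all protein-coding genes the share was 56.8% and the median 2.17 FPKM, so the list as a whole lay near the background. UCHL1, a neuronal ubiquitin hydrolase, was at 104, 98.1 and 128 FPKM, and NEFH, the heavy neurofilament chain, at 79.6, 77.1 and 80.8 FPKM. ENO2 and TUBB3 were at 51.2 ± 7.24 and 39.3 ± 3.67 FPKM. Other neuronal genes were absent, among them GAP43, listed at 0, and STMN2, at 0.0866 ± 0.0392 FPKM. Of 21 neural crest and adrenergic neuroblast genes 6 were expressed, led by TFAP2B and GATA2, but DBH (0.0459 ± 0.04098 FPKM) was absent and TH was listed at 0.

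Lists of other cell types had few expressed members. Skeletal muscle genes were expressed in 3 of 15 cases (PAX7, TNNT1 at 11.95 ± 2.84 FPKM and PAX3 at 6.94 ± 0.564 FPKM), while MYOD1 was below 0.1 and MYOG and DES were listed at 0. Stroma and fibroblast genes were expressed in 5 of 17 cases, with THY1 and ACTA2 (10.1 ± 1.56 FPKM) highest, while COL1A2 was listed at 0 and DCN was at 0.01202 ± 0.0126 FPKM. Endothelial genes were expressed in 2 of 13 cases, SOX18 and EGFL7 (26.2 ± 3.82 FPKM), and VWF was listed at 0. Immune genes were expressed in 2 of 16 cases, CD79A (6.98 ± 0.7902 FPKM) and AIF1 (1.85 ± 0.846 FPKM), with CD3E listed at 0 and CD14 at 0.156 ± 0.173 FPKM. Of 17 erythroid and megakaryocyte genes EPOR was expressed, of 11 liver genes APOE (7.105 ± 0.372 FPKM), and of 7 melanocyte genes none. Bone and cartilage genes were expressed in 3 of 13 cases, led by ALPL (4.58 ± 0.693 FPKM). Pluripotency and germ cell genes were expressed in 3 of 15 cases, LIN28B (13.4 ± 1.62 FPKM), DNMT3B (3.21 ± 0.138 FPKM) and SALL4 (2.93 ± 0.616 FPKM).

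**Figure D4:**
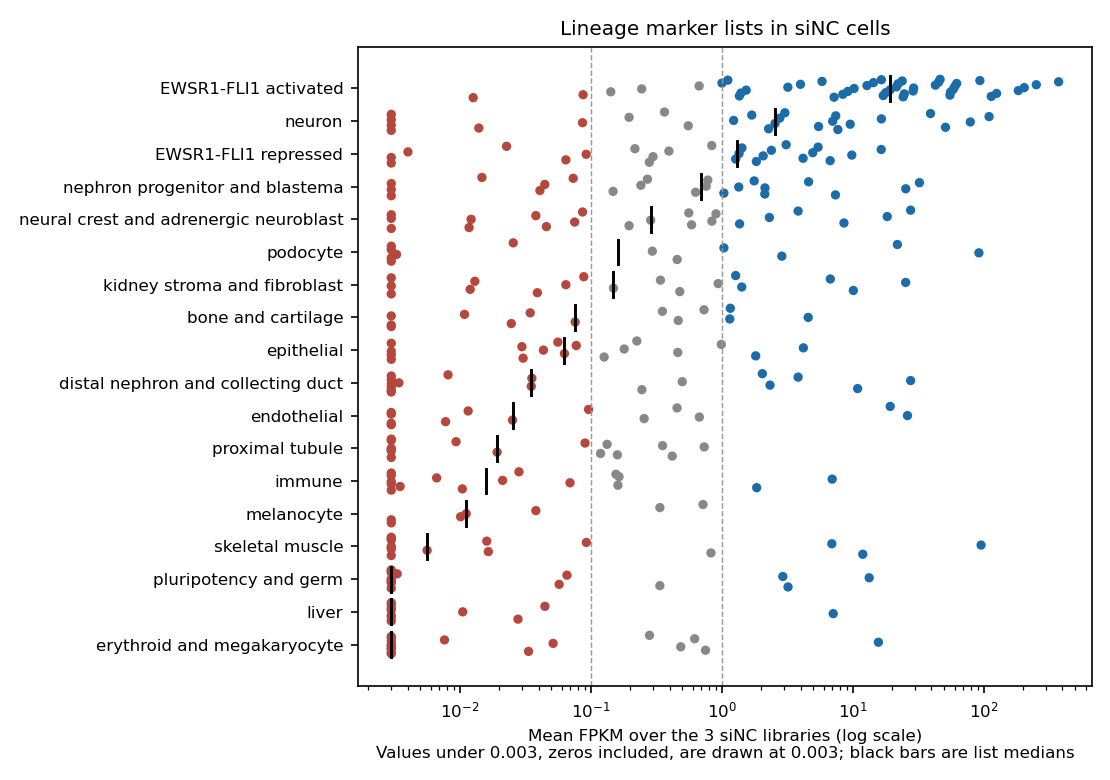
Mean FPKM (log scale) of each member of the lineage lists, with expressed genes in blue, absent genes in red, genes in between in grey, dashed lines at 0.1 and 1 FPKM, and black bars at the list medians. The EWSR1-FLI1 activated list has the highest median, 19.4 FPKM, and no proximal tubule gene lies above 1 FPKM.

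Replicate 3 stood apart from the other siNC libraries. Over the 12813 expressed rows the median absolute log2 difference, with 1 added to each FPKM, was 0.0899 between replicates 1 and 2, 0.173 between replicates 1 and 3 and 0.208 between replicates 2 and 3. Differences over 2-fold numbered 29, 99 and 160 in the same order. Replicate 3 was the library farthest from the median in 59.7% of the rows. All 77 ribosomal protein genes were lowest in replicate 2 and highest in replicate 3, and their share of the sum was 6.63%, 6.03% and 7.32%. Among the 12813 expressed rows, 4827 were lowest in replicate 2 and 5386 were highest in replicate 3. Replicate 3 was also the library most often lowest, in 5567 rows, so the order of the ribosomal protein genes was not that of the rows as a whole. Depth could not be recovered from FPKM, and its part in these differences was not tested.

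Of 7179 protein-coding genes at a mean of at least 5 FPKM, 50 differed over 2-fold between their highest and lowest library. The widest were SENP3-EIF4A1, at 2.59, 1.78 and 32.3 FPKM, and ATP6V1G2-DDX39B, at 1.98, 29.4 and 6.13 FPKM. Both are readthrough genes that overlap abundant neighbours, as is PTGES3L-AARSD1 (1.68, 3.94 and 9.83 FPKM), and the sources used here do not say how the authors' program divided reads between overlapping genes, so their levels are uncertain. GP1BB was at 1.398, 1.34 and 14.5 FPKM and TOMM6, a subunit of the mitochondrial import complex, at 4.29, 1.302 and 10.4 FPKM. Heat shock genes stood out on the low side of replicate 3. The inducible chaperone gene HSPA1A was at 8.66, 8.05 and 1.78 FPKM and its near-identical copy HSPA1B at 10.8, 9.98 and 2.49 FPKM. DNAJB1, a partner of these chaperones, was at 23.01, 21.6 and 8.48 FPKM, and the constitutive HSPA8 at 408, 413 and 213 FPKM. For all 4 genes replicates 1 and 2 were close and replicate 3 was lower, but the chaperone list as a whole was not. Of its 33 genes, 13 (39.4%) were lowest in replicate 3 and 18 (54.5%) were highest there. Among all 12813 expressed rows these shares were 43.4% and 42.0%. RAX, a homeobox factor of the eye field, was at 12.8, 11.9 and 2.72 FPKM, with SNX15 (7.98, 7.403 and 2.13 FPKM) and the potassium channel gene KCNA2 (5.52, 8.03 and 2.62 FPKM) also lowest in replicate 3.

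**Figure D5:**
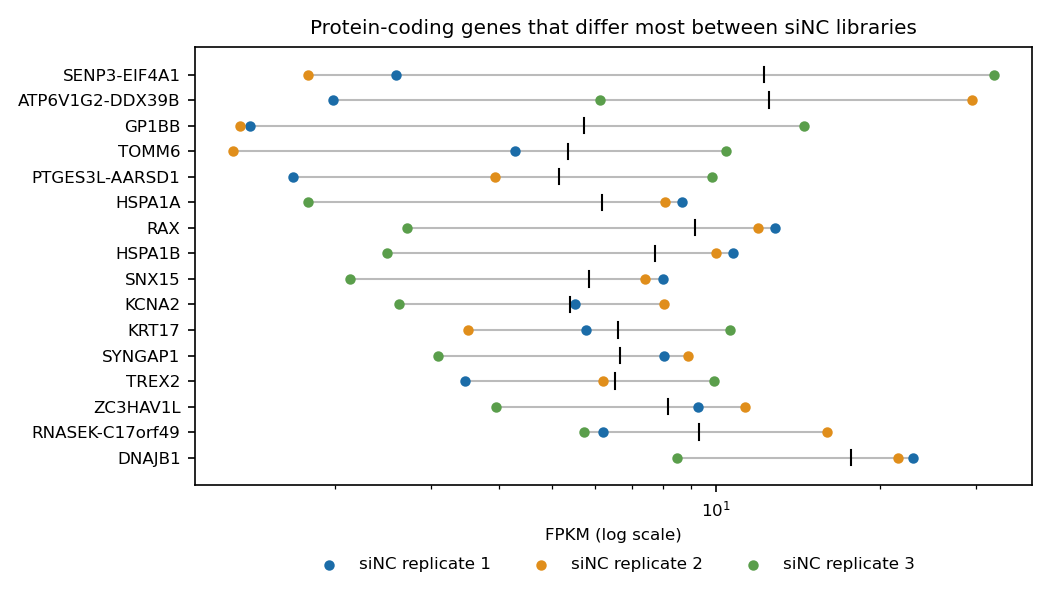
FPKM (log scale) in each siNC library for the 16 protein-coding genes with a mean of at least 5 FPKM and the largest ratio of highest to lowest library; black bars are means. HSPA1A, HSPA1B, DNAJB1 and RAX are close in replicates 1 and 2 and lower in replicate 3, while SENP3-EIF4A1 ranges from 1.78 to 32.3 FPKM.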

How the data were processed

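RNA-seq of total RNA was used from the 3 siNC libraries of SK-NEP-1 cells, made with the NEBNext Ultra RNA kit per the labels' protocols, with no strand setting stated. The authors deposited FPKM values per gene name and library, with the unit named per the file headers, and they were used as deposited. Per the submitters' processing notes, the build was hg19 and the tools included StringTie 2.2.0, HISAT2 2.2.1, fastp and SAMtools 1.4.1, whose roles are not stated. No source used here gives the annotation. Among rows, 33% hold more than 6 decimals, as do 94.3% of expressed protein-coding genes, so values appear to have been combined over transcripts by a rule that is not stated. FPKM keeps no total count, so the depth per library is unknown and no counting interval was given. The FPKM of replicates 1, 2 and 3 summed to 252423, 244702 and 260890.

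Means, SDs, level classes (at least 1 FPKM and below 0.1 FPKM) and shares of each library's sum were computed with Python 3.11.15, pandas 2.3.3 and NumPy 2.4.6, and the functions were tested on simulated data. The spread was taken on log2(FPKM + 1). Gene types came from GENCODE 29 and synonyms from RefSeq, by symbol; 20390 row names had no type and held 2.99% of the sum. Of the list entries, 20 were matched by another name and CD24, PECAM1 and BAGE were not found. RefSeq promoters on GRCh38.p14 were matched by symbol only, because the build of the files is hg19. They covered 79.3% of protein-coding genes (82.2% of expressed and 75.1% of absent ones), under the 80% set as a minimum, so the planned comparison of promoter letters between level classes is void and was not made.

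The members, lists and pairs were chosen with earlier results of these data known. The genes named were the 15 most abundant, up to 5 of the highest mean in each list of transcription factors, receptors, ligands and surface proteins, the given markers, up to 4 of the highest mean and the defining absent markers of each lineage list, the 10 most variable genes, and the 2 members on each side of both thresholds. Where lists were long, some of these are given by counts alone, and a few named by the rule are not reported here. Other members of the lists, such as FLI1, ERG, IGF2, EGFR, HLA-C, DNAJB1 and HSPA8, were named after their values were seen. Alternatives were other thresholds, scalings and filters, a call in every library, summed rows, another pseudocount and each library left out.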

Additional observations from a re-analysis of the deposited data

How the results depend on the processing

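Without each library in turn, expressed protein-coding genes numbered 10839 to 10882, transcription factors 357 to 361, receptors 127 to 130, ligands 77 to 79 and surface proteins 87 in each case. No count of these classes moved by over 1.5 times, with 1 exception among all alternatives run: with every library scaled to the common sum of TPM values, expressed ligands rose from 76 to 122. The pairs with both members expressed numbered 27, and 58 with that scaling, 48 with thresholds of 0.5 and 0.05, and 17 with 2 and 0.2. WT1 and SOX9 were below 1 FPKM without replicate 3. The median SD of log2(FPKM + 1) was 0.132 between libraries, 0.0635 to 0.147 with 1 library left out (the lowest without replicate 3), and 0.0114 with no filter on low values. Without mitochondrially encoded genes the ribosomal protein share was 8.40% and that of the 50 most abundant genes 11.7%; over protein-coding genes alone these were 7.32% and 10.2%, and the mitochondrial share was 18.7%. Of the counts of lineage lists under alternatives, 300 were within 1.5 times and 24 were not, including the proximal tubule genes expressed, from 0 to 3 with that scaling. No paired analysis was possible because the results describe 1 group and come from no test. Depth is unknown, so an absent gene is not shown to be silent.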

Other observations

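A stretch of chromosome 9 holds several genes that were listed at 0, and it was chosen after its values were seen. From FOCAD to ELAVL2, both counted, 24 protein-coding genes in the gene order of RefSeq were in the table. In every siNC library 19 of them were at 0, beside 3079 of all 19142 protein-coding genes. The 19 genes of the stretch included all 16 interferon genes, which resting cells rarely express. The others were the cell cycle inhibitors CDKN2A and CDKN2B and MTAP, an enzyme of methionine salvage that most cells express. KLHL9, an adaptor of ubiquitin ligation that lies among the interferon genes, was at 3.61, 3.62 and 2.697 FPKM, and FOCAD, at the edge of the stretch, at 2.25, 2.39 and 2.07 FPKM. Across 254 core genes of translation, proteasome and similar complexes, a set also chosen after the data were seen, 250 were expressed. In every library 2 were at 0, the testis gene PSMA8 and the thymus gene PSMB11. Nearly every dividing cell uses such core genes, so few zeros were given in advance and the set is no background for the stretch. An exact 0 in values without counts can be a failed estimate, and the copy number of the region was not measured.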
